A study of Mus musculus with 8 samples.

Results

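The Zfp500 to Zfp999 genes of the mouse are a numbered block of zinc finger genes, taken here as every gene symbol made of Zfp and a number of 3 digits that begins with 5 or a higher digit. They were 172 of the 23284 gene symbols in the expression table, and 141 of them had a mean of 1 FPKM or more over the 8 libraries. FPKM is the number of sequenced fragments of a gene divided by the length of its transcript and by the size of the library, so that it is a level per length and a share of the library. The same limit was passed by 12042 of all symbols, which are the genes tested below. Just above the limit were Zfp943 and Zfp612, each with a mean of 1.01 FPKM, and just below it were Zfp709 with 0.970 and Zfp773 with 0.918. Of the 172 genes, 3 (Zfp616, Zfp648 and Zfp735) were listed at 0 in all 8 libraries.

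RNA was measured in mouse induced pluripotent stem cells (iPSCs), which had been reprogrammed from embryonic fibroblasts and were grown on a layer of feeder cells. The dox group was 2 clones of a knock-in line, labelled ColA1_miR203 (KI/KI) and Rosa26rtTA (KI/KI), in which doxycycline switches on the microRNA miR-203; the drug was given for 5 days and RNA was taken 2 weeks after its withdrawal. The vehicle group was 2 clones of the same line without induction, and its description field repeats the text on induction, so the title and the treatment field were followed. The other 4 libraries were of wild-type iPSCs, labelled ColA1_miR203 (+/+) and Rosa26rtTA (+/+), collected 1 week after transfection with siRNA against the DNA methyltransferase genes Dnmt3a or Dnmt3b, against both, or with a control siRNA (siControl), 1 library each. A clone is a single line of cells, nothing in the labels says that the libraries of a group came from separate animals, and p-values therefore measure only the spread between these libraries.

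Zinc finger proteins of the C2H2 kind bind DNA through arrays of small folds, each held by a zinc ion between a pair of cysteines and a pair of histidines. Many also carry a KRAB domain, which recruits the corepressor Trim28 (KAP1), and Trim28 in turn brings in the histone methyltransferase Setdb1, HP1 proteins and, in embryonic cells, DNA methylation. The KRAB zinc finger genes lie in clusters of similar copies, and in embryonic stem cells many of their proteins bind and silence transposable elements. Zinc finger genes without a KRAB domain have more varied tasks, from transcription factors in development to factors of the ribosome.

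The translated coding sequences of GENCODE release M21 separated the block into 99 genes with a KRAB motif and 73 without one. The motif was found by a pattern and the classes are therefore approximate. Of the 141 expressed genes, 81 had the motif and 60 did not. The expressed genes with the motif had a median of 12 zinc fingers, a median level of 2.88 FPKM and a median transcript GC content of 42%. Those without it had a median of 7 zinc fingers, a level of 6.27 FPKM and a GC content of 53.8%, and all 12042 genes had medians of 10.8 FPKM and 50.3%. The KRAB genes were thus the lower in level and the poorer in GC, and 60 of the 81 had a mean under 5 FPKM. Sequence was shared widely: 17 of the 172 genes had more than 20% of their 50-base words in another gene as well, 16 of them KRAB genes, and the division of fragments among such copies is uncertain.

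The zinc finger genes with the highest levels were mostly without the KRAB motif. Zfp598, which in human cells marks stalled ribosomes with ubiquitin, lay between 32.4 and 40.1 FPKM in the 8 libraries. Zfp740 lay between 24.1 and 39.3 FPKM, Zfp553 between 25.4 and 40.1, and Zfp706, a factor that mouse embryonic stem cells use to leave self-renewal, between 29.7 and 34.7. These levels vary by less than 2-fold among libraries that differ in line, drug and siRNA. Zfp828, Zfp664, Zfp622, Zfp710, Zfp532 and Zfp512 also stood among the 12 highest, with means from 17.3 to 29.7 FPKM. Only Zfp568 (mean 29.5 FPKM) and Zfp961 (27.3 FPKM) of the 12 had the motif. Zfp568 is a KRAB protein that silences a placental transcript of Igf2 in the mouse embryo. Exons of Zfp553 overlap those of Sept1, exons of Zfp740 those of Csad and exons of Zfp961 those of Cyp4f18, and the sources used here do not say whether the counting used the strand.

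FPKM summed to between 486917 and 586657 in the 8 libraries, and the number of fragments is unknown, so no counting interval can be given. Dnmt3a had 59.8 FPKM in the siDnmt3a library and 69.5 FPKM in the library with both siRNAs, against 75.1 FPKM in siControl. Dnmt3b had 128.3 FPKM in the siDnmt3b library and 135.0 FPKM with both siRNAs, against 146.3 FPKM in siControl. Dnmt3b was as low, at 134.8 FPKM, in the siDnmt3a library, which did not target it, and both mRNAs were still abundant 1 week after transfection. Genes typical of pluripotent cells were present in every library, with Pou5f1 between 854.6 and 1223.5 FPKM, and so were genes typical of fibroblasts, the usual cells of a feeder layer.

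The first comparison asks which zinc finger genes differed between cells in which miR-203 had been switched on and off again and cells in which it had not. After dox, 31 of the 141 expressed zinc finger genes fell and 8 rose (limma on log2(FPKM + 1), adjusted p under 0.05 over all 12042 genes). Over all genes tested, 14.2% fell and 15.9% rose. Of the 81 KRAB genes, 26 fell and 0 rose, and their median difference was -0.30 on the log2 scale; 44 of the 81 (54.3%) had an unadjusted p under 0.05, beside 44.8% of all genes. Of the 60 genes without the motif, 5 fell and 8 rose, with a median of 0.01, beside a median of -0.01 over all genes. The plot of differences by class shows 71 of the 81 KRAB differences below 0, beside 6205 of 12042 over all genes. Genes of the same libraries are no independent observations, so this count describes these libraries only. After correction for GC content and length, described below, the KRAB median was -0.15. Among the 142 expressed genes numbered Zfp1 to Zfp499, 29 fell and 2 rose, with a median of -0.17.

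**Figure D1:**
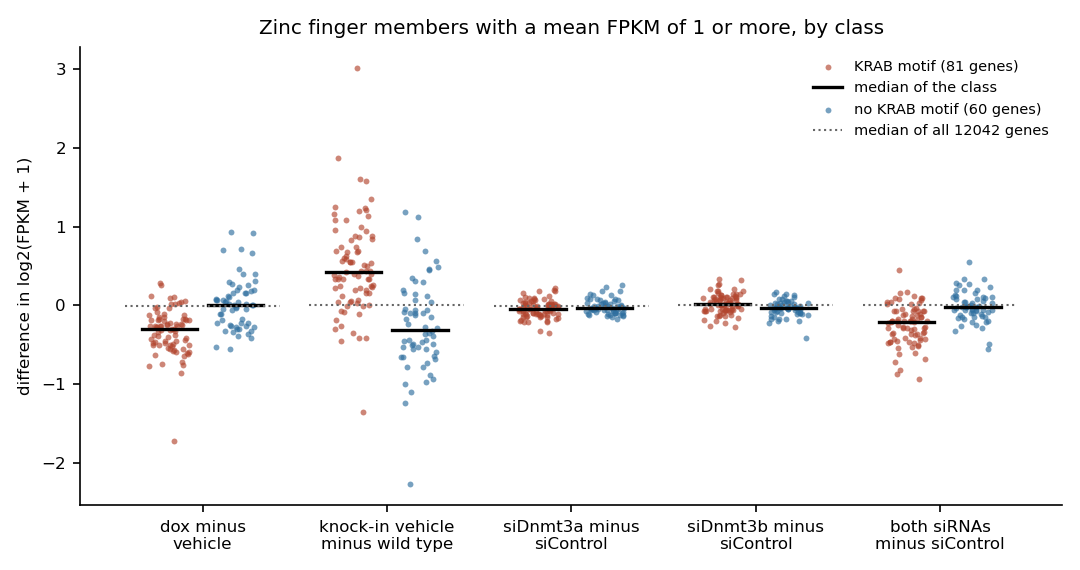
Differences in log2(FPKM + 1) of the 141 expressed zinc finger genes in 5 comparisons. Each point is 1 gene, black bars are class medians (81 genes with a KRAB motif, left of each pair, and 60 without, right), and dotted lines are medians of all 12042 genes; the KRAB medians are -0.30 for dox, 0.42 for the knock-in vehicle libraries and -0.21 for both siRNAs.

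Zfp534, on chromosome 4 (chr4:147673502-147702553, minus strand, GRCm38), had the largest fall. It had 6.90 and 3.38 FPKM in the dox libraries, against 21.4 and 15.8 FPKM in the vehicle libraries. The groups did not overlap, and the difference was -1.72 ± 0.28 (SE) on the log2 scale (limma adjusted p = 0.00936). Zfp600, a related KRAB gene of the same chromosome, had 0.970 and 0.733 FPKM with dox, against 2.81 and 1.6 FPKM with vehicle. It also fell, by 0.77 on the log2 scale (limma adjusted p = 0.0309), but its call was lost without dox clone 2 or vehicle clone 1 and after correction for GC content and length. Zfp600 also passed the limit of 1 FPKM only through the vehicle group, where it is high, so its fall is drawn in part from the values that admitted it. Zfp534 shares 59.3% of its 50-base words with other genes, Gm8935 among them, and Zfp600 shares 74.7%, with Rex2 among them. Both levels are thus uncertain as to the copy they come from.

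The promoters of Zfp534 and Zfp600 are shown because the pair moved together and belongs to 1 cluster of copies. The windows run from 250 bases before to 50 bases after the start of the gene (RefSeq, GRCm38.p6) and are 72.2% identical over 335 aligned columns; capitals mark the longest run they share, of 28 bases. They hold 3 and 5 CG dinucleotides. Zfp600 has 2 windows in RefSeq, and the first listed is shown.
Zfp534 promoter (chr4:147702582-147702881, - strand): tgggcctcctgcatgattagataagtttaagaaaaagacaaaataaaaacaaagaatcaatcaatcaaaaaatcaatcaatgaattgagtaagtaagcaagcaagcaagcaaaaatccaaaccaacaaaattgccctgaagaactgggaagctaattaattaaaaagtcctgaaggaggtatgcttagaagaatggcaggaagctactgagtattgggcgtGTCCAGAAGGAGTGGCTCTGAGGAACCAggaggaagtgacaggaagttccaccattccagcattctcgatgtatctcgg
Zfp600 promoter (chr4:146156577-146156876, + strand): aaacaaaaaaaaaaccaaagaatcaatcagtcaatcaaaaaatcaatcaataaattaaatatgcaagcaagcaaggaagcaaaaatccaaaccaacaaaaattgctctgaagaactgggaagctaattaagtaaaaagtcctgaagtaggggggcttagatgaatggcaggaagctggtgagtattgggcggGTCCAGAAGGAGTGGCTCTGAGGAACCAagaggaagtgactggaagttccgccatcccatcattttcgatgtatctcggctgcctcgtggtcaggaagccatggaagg

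Zfp808 had 5.96 and 5.42 FPKM with dox, against 10.7 and 9.83 FPKM with vehicle, a difference of -0.75 ± 0.0998 (limma adjusted p = 0.00464). Zfp932, which together with its near copy Gm15446 binds endogenous retroviruses in mouse embryonic stem cells, had 10.2 and 9.62 FPKM with dox, against 18.6 and 15.4 FPKM with vehicle. It fell, with a log2 difference of -0.72 ± 0.110 (limma adjusted p = 0.00740). Both dox libraries were below both vehicle libraries for each gene. Zfp808 shares 40.4% of its 50-base words with other genes, Zfp934 among them, and Zfp932 shares 45.2%, with Gm15446 among them. These levels are uncertain too.

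The promoters of this pair are printed as a contrast to the first pair, since Zfp808 (chromosome 13) and Zfp932 (chromosome 5) fell by a similar amount while their windows are less alike. They are 60.5% identical over 334 aligned columns, and the longest shared run, in capitals, is 10 bases. The windows hold 8 and 9 CG dinucleotides. Zfp932 has 2 windows in RefSeq, and the first listed is shown.
Zfp808 promoter (chr13:62129640-62129939, + strand): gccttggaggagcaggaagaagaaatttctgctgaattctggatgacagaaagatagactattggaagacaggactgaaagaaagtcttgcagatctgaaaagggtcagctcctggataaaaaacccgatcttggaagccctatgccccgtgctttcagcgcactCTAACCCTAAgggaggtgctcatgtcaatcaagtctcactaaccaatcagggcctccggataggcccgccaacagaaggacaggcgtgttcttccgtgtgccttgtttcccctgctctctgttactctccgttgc
Zfp932 promoter (chr5:109996260-109996559, + strand): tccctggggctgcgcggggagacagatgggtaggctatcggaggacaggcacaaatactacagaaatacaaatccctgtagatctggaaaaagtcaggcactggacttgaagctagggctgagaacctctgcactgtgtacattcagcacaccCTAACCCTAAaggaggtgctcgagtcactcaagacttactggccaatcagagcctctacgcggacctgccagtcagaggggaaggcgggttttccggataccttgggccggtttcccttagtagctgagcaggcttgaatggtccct

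Zfp930 and Zfp566 shared 20% of their words or less with any other gene. Zfp930 (chr8:69209038-69230536, plus strand) had 8.41 and 7.80 FPKM with dox, against 13.6 and 14.9 FPKM with vehicle (difference -0.74 ± 0.0954, limma adjusted p = 0.00414). Zfp566 (chr7:30077337-30090527, minus strand) had 4.00 and 2.97 FPKM with dox, against 7.69 and 6.45 FPKM with vehicle (difference -0.85 ± 0.147, limma adjusted p = 0.0109). Neither gene's groups overlapped. The wild-type libraries of Zfp566, at 6.78 to 7.19 FPKM, lay at the vehicle level, unlike those of Zfp534, Zfp600, Zfp808, Zfp930 and Zfp932. Zfp599, Zfp945, Zfp958 and Zfp961 completed the 10 largest falls, with differences from -0.64 to -0.61. Further down, Zfp568 had 28.4 and 30.8 FPKM with dox, against 36.3 and 39.0 FPKM with vehicle, and Zfp708, a KRAB protein that binds transposable elements in the mouse, fell by 0.39 on the log2 scale. Zfp708 shares 100% of its words with other genes, among them the overlapping annotated gene Gm28557.

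The counts depended on single libraries and on the model. The number of zinc finger genes that fell was 42 without dox clone 1, 12 without dox clone 2, 6 without vehicle clone 1 and 18 without vehicle clone 2, and the number that rose was 5 to 7. Of all genes, 15.1%, 6.49%, 3.31% and 6.85% fell in the same fits, in the same order, so that without vehicle clone 1 the members' share of 4.26% was near that of all genes. Such a fit leaves 1 library in a group, which is assumed to vary like the others. With the clone number as a block, 60 fell and 13 rose, against 26.1% and 24.4% of all genes in that fit; the KRAB genes then had 46 falls and 0 rises. Of the 27 genes named for this comparison with a call, 11 kept it whichever library was left out: Zfp534, Zfp599, Zfp808, Zfp930, Zfp932 and Zfp958 among those that fell, and Zfp503, Zfp521, Zfp651, Zfp703 and Zfp768 among those that rose. The other 16 lost it in at least 1 such fit. Without the filter on low values, 4 of 169 zinc finger genes fell and 6 rose, which is 2.37% and 3.55% of them, beside 1.85% and 4.08% of the 19429 genes tested; the share that fell was then near that of all genes, and 19 of the 27 lost their call. The correction for GC content and length ended 6 of the 27 calls.

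**Figure D2:**
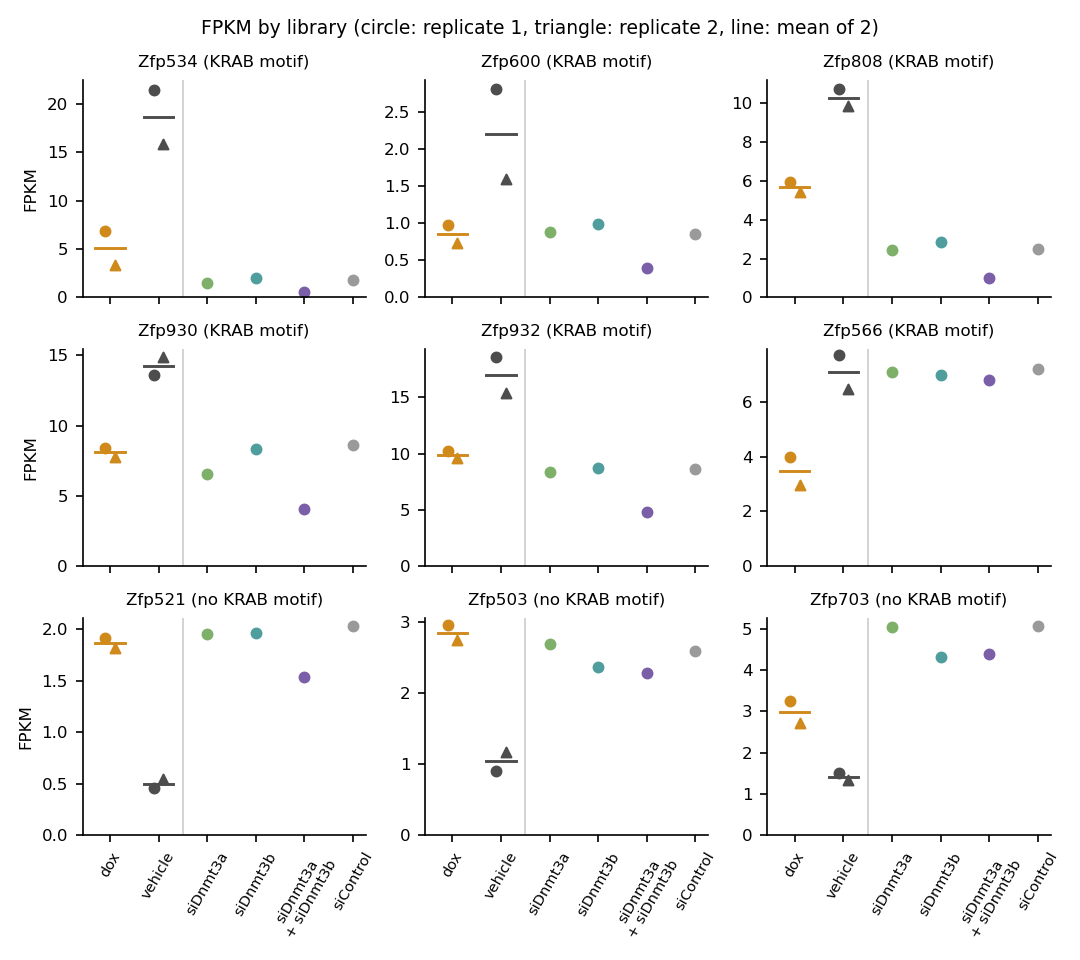
FPKM of 9 zinc finger genes in each library, with dox and vehicle clones left of the vertical line and the 4 wild-type libraries right of it; each panel starts at 0 and horizontal lines are means of 2 clones. The KRAB genes lie lower with dox than with vehicle, Zfp521, Zfp503 and Zfp703 lie higher, and the library with both siRNAs is the lowest of the wild-type libraries for all 6 KRAB genes. Zfp534, Zfp808, Zfp930 and Zfp932 are also among the genes called 1.5-fold lower in that library, and their order follows from that call. Zfp566 is lowest there by little, at 6.78 FPKM beside 6.96 to 7.19 FPKM.

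The 8 genes that rose all lacked the KRAB motif. Zfp521, a cofactor that drives neural differentiation of mouse embryonic stem cells, had 1.91 and 1.82 FPKM with dox, against 0.455 and 0.545 FPKM with vehicle (difference 0.93 ± 0.103, limma adjusted p = 0.00250). Zfp503, a regulator of striatal development, had 2.96 and 2.75 FPKM with dox, against 0.910 and 1.17 FPKM with vehicle (difference 0.92 ± 0.114, limma adjusted p = 0.00360). Zfp703, which is related to Zfp503 in sequence, had 3.26 and 2.73 FPKM with dox, against 1.5 and 1.34 FPKM with vehicle. In all of them both dox libraries lay above both vehicle libraries, and the dox level of Zfp521 was within the wild-type range of 1.53 to 2.03 FPKM. Zfp521, Zfp629 and Zfp608 had means under 1 FPKM with vehicle and passed the limit through other groups, so their rises are drawn in part from the values that admitted them. Zfp768, Zfp651, Zfp629, Zfp637 and Zfp608 rose by 0.71, 0.67, 0.46, 0.40 and 0.39 on the log2 scale. Zfp608 stayed low even so, with 0.811 and 0.774 FPKM with dox, 0.367 and 0.366 FPKM with vehicle and 4.95 to 5.91 FPKM in wild-type cells.

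The promoter of Zfp503 is shown beside those of the KRAB genes because of its CG dinucleotides, which are in capitals. It holds 19, and over the expressed genes with a RefSeq window the median was 10 for the 71 KRAB genes, 24 for the 43 genes without the motif and 22 for all 8584 genes. For a gene with several windows, the highest count was taken. A CG reads the same on both strands.
Zfp503 promoter (chr14:21989552-21989851, - strand): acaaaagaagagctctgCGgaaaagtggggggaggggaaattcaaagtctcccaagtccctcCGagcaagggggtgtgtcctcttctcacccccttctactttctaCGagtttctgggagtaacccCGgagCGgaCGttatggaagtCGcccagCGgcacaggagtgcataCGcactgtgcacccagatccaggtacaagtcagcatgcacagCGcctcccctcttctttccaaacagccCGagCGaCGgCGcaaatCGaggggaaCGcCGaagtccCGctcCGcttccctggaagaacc

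Expressed zinc finger genes with under 10 CG dinucleotides in the window numbered 34, of which 31 had the KRAB motif; 9 of them fell with dox and 0 rose, with a median of -0.27. Those with 20 or more numbered 44, of which 14 had the motif, and 4 fell and 4 rose, with a median of -0.01; over all genes, whatever their promoter, 14.2% fell and 15.9% rose.

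Of 20 expressed genes of the block with a known role, 4 rose with dox (Zfp503, Zfp521, Zfp608 and Zfp703) and 5 fell, which is 20.0% and 25%, beside 15.9% and 14.2% of all genes. So few genes give no result about the list, and their values are given singly. The falls were those of Zfp568, Zfp600, Zfp708 and Zfp932, described above, and of Zfp622, a factor for the large ribosomal subunit, with 18.4 and 19.7 FPKM with dox, against 23.8 and 23.5 FPKM with vehicle. Zfp809, which silences retroviruses by binding their primer binding site, did not pass the test (difference -0.26, limma adjusted p = 0.0760). Its levels were 8.82 and 8.54 FPKM with dox, against 10.2 and 11.1 FPKM with vehicle. Zfp819, a KRAB gene that guards genome stability in mouse pluripotent cells, had 10.6 and 6.92 FPKM with dox, against 9.40 and 6.77 FPKM with vehicle, so its groups overlapped. The other 9 did not pass either, with differences from -0.34 to 0.24. They were Zfp598 and Zfp706 (above), Zfp516, an activator of brown fat genes, Zfp593, whose yeast counterpart takes part in ribosome export, Zfp609, a partner of the cohesin loader, Zfp644, a partner of the histone methyltransferases Ehmt1 and Ehmt2, Zfp687, Zfp827, which brings a deacetylase complex to telomeres in human cells, and Zfp830, which the early mouse embryo needs. Zfp536 and Zfp750, known from neurons and from skin, were below the limit with means of 0.159 and 0.688 FPKM.

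Many genes of the corepressor list, which holds partners of KRAB zinc fingers, were lower with dox as well. Of its 28 genes, 18 (64.3%) fell and 0 rose, with a median of -0.34, beside 14.2% and 15.9% of all genes. The list was chosen with earlier results of these data known. It also holds Zfp57, itself a KRAB zinc finger gene, and Zfp42, and neither of these passed. Trim28 had 402.0 and 354.3 FPKM with dox, against 664.8 and 597.8 FPKM with vehicle (difference -0.74 ± 0.0916, limma adjusted p = 0.00363). Setdb1 had 29.0 and 26.7 FPKM with dox, against 34.8 and 37.0 FPKM with vehicle, a fall of 0.36 on the log2 scale (limma adjusted p = 0.0245). Neither overlapped between the groups. The chromatin factors Daxx, Hells, Morc3 and Smarcad1 also fell, with log2 differences of -0.79, -0.82, -0.60 and -0.61, and Dnmt3b had the largest fall of the list, with -1.5. Atf7ip, the partner of Setdb1, differed by -0.07 and did not pass.

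With dox, fibroblast genes moved in the opposite direction to the KRAB genes. The 25 genes of the feeder fibroblast list summed to 4066 and 4303 FPKM with dox, against 1167 and 1395 FPKM with vehicle; all 24 that were tested rose, with a median of 1.65, and none of the 25 was at 0 in every library. The expressed KRAB zinc finger genes summed to 375 and 331 FPKM with dox, against 501 and 469 FPKM with vehicle. Those without the motif summed to 527.0 and 526.4 FPKM with dox, against 545 and 551 FPKM with vehicle. Over all genes 15.9% rose and 14.2% fell. Of the 14 pluripotent genes 3 rose and 2 fell, or 21.4% and 14.3%, which is near those shares. Their median was -0.02, and 7 differences were positive and 7 negative. They summed to 5082 and 4884 FPKM with dox, against 4505 and 4054 FPKM with vehicle. Dppa5a, which rose, weighed heavily in these sums, with 1870.3 and 1978.3 FPKM with dox, against 1164.0 and 1007.2 FPKM with vehicle. Of 6 macrophage genes tested, 2 rose, and they summed to 207 and 275 FPKM with dox, against 155 and 182 FPKM with vehicle. In bulk RNA, fewer cells of a type and less RNA per cell cannot be told apart, and the part of fibroblast RNA in the differences of the zinc finger genes was not tested.

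**Figure D3:**
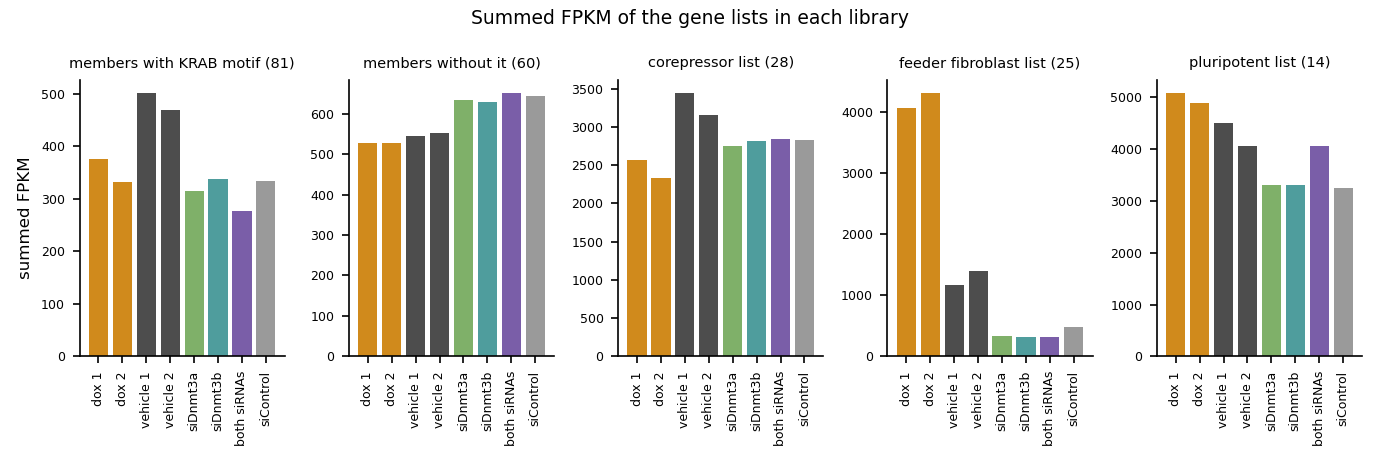
Summed FPKM of 5 gene lists in each of the 8 libraries, as bars from 0, with each list's number of genes in its title. The expressed KRAB zinc finger genes and the corepressor list are highest in the vehicle clones, and the feeder fibroblast list is highest in the dox clones, at 4066 and 4303 FPKM.

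Seed matches of the induced microRNA were found in zinc finger genes that fell and in others. The mature mmu-miR-203-3p (chr12:112130927-112130948, plus strand, RefSeq) is printed with its seed, bases 2 to 8, in capitals; the searched site is its reverse complement, CATTTCA, on the transcript strand of the annotated 3′ UTRs.
mmu-miR-203-3p: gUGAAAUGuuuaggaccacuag
Zfp534 site (chr4:147673931-147673959, - strand): agctttgacttCATTTCAggtcagagaga
Zfp534 site (chr4:147673719-147673747, - strand): aatgtagaaagCATTTCAtgacacctttt
Zfp534 site (chr4:147673609-147673637, - strand): cagaaataatcCATTTCAaaaggaaacta
Zfp600 site (chr4:146198058-146198086, + strand): atctttgacttCATTTCAgtgcagaaaaa
Zfp961 site (chr8:71969157-71969185, + strand): ctatcaggaagCATTTCAgctctgaagac
Zfp704 site (chr3:9438502-9438530, - strand): ccaaccaggccCATTTCAcctagagagaa
The sites of Zfp534, Zfp600 and Zfp961 (1 of its 2) are shown as examples from genes that fell, and that of Zfp704 is 1 of 5 in the gene with the most; capitals mark the match to the seed. The expressed zinc finger genes with a site were 28 of 139 with a 3′ UTR, or 20.1%, against 16.7% of all genes. Of these 28, 6 fell and 2 rose with dox, with a median of -0.16, and of the 111 without a site 25 fell and 6 rose, with a median of -0.23. Zfp704, a gene without the KRAB motif, had 8.44 and 7.72 FPKM with dox, against 6.84 and 6.33 FPKM with vehicle, and did not pass (difference 0.26, limma adjusted p = 0.0926). Over all genes, 13.5% of those with a site fell and 14.7% rose, with a median of -0.04, and 14% of those without one fell and 16.5% rose, with a median of -0.00. The RNA was taken 2 weeks after the drug was withdrawn, and a match of these letters is not evidence of binding.

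The second comparison sets the uninduced knock-in line against the wild-type line. Among the 141 zinc finger genes, 63 were higher and 40 lower in the 2 knock-in vehicle libraries than in the 4 wild-type libraries (limma, adjusted p under 0.05), against 34.5% higher and 32.1% lower of all genes. Of the 81 KRAB genes, 52 were higher and 7 lower, with a median of 0.42. Of the 60 without the motif, 11 were higher and 33 lower, with a median of -0.31, beside a median of 0.01 over all genes. The line, the transfection and the siRNAs cannot be told apart here, since only wild-type cells were transfected, and with siControl as the only wild-type library 46 were higher and 31 lower, beside 25.8% and 22.4% of all genes. In that fit the spread comes from the 2 vehicle libraries alone, and siControl is assumed to vary like them. The vehicle libraries are the same as those compared with dox, so the 2 comparisons share them.

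Zfp534 again had the largest difference, with 21.4 and 15.8 FPKM in the knock-in vehicle libraries, against 0.544 to 2.03 FPKM in the wild-type libraries (difference 3.02 ± 0.252, limma adjusted p = 1.1e-05). Zfp808 had 10.7 and 9.83 FPKM, against 0.978 to 2.85 FPKM in wild type (difference 1.87, limma adjusted p = 0.00014). Zfp936 had 18.1 and 16.0 FPKM in the knock-in vehicle libraries, against 3.34 to 6.52 FPKM in wild type (difference 1.6). In these 3 genes the lowest vehicle library was above the highest wild-type library. Zfp942, Zfp820, Zfp871, Zfp960 and Zfp935, also KRAB genes, were higher by 1.22 to 1.58 on the log2 scale. Zfp942 and Zfp820 had means under 1 FPKM in wild type and passed the limit through the knock-in libraries. Of these, Zfp960 shares 74.0% of its 50-base words with other genes, Zfp97 among them. Zfp935 shares 100%, and the overlapping annotated gene Gm49359 is among its sharers.

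The genes that were lower in the knock-in line were led by Zfp608, a relative of Zfp609, with 0.367 and 0.366 FPKM in the vehicle libraries, against 4.95 to 5.91 FPKM in wild type (difference -2.27 ± 0.0894, limma adjusted p = 1.34e-07). Zfp647 had 2.2 and 2.12 FPKM, against 6.47 to 7.53 FPKM in wild type, and was the only KRAB gene among the 8 largest in this direction (difference -1.35). Zfp703, Zfp768, Zfp628, Zfp618, Zfp521 and Zfp668 were lower too, with log2 differences from -1.24 to -0.89. Zfp608 and Zfp618 passed the limit of 1 FPKM only through wild type, and Zfp521 had a mean under 1 FPKM in vehicle alone, so these differences are drawn in part from the values that admitted the genes. Zfp703 had 1.5 and 1.34 FPKM in the knock-in vehicle libraries, against 4.32 to 5.08 FPKM in wild type. Exons of Zfp668 overlap those of Zfp646, another zinc finger gene. Levels in all 3 groups thus ordered differently by gene: Zfp808 was highest in vehicle, with a mean of 10.3 FPKM, beside 5.69 with dox and 2.19 in wild type, whereas Zfp703 was lowest in vehicle.

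The other gene lists were compared between the lines in the same way. Of 24 fibroblast genes, 20 were higher and 0 lower in the knock-in vehicle libraries. The list summed to 1167 and 1395 FPKM there, against 315 to 473 FPKM in wild type. Its median was 1.65, in the same direction as the KRAB median of 0.42, unlike with dox. Of the 28 corepressor genes, 13 were higher and 8 lower. Of the 14 pluripotent genes, 9 were higher and 2 lower, and of 6 macrophage genes 4 were higher and 1 lower. Of the 20 expressed zinc finger genes with a known role, 7 were higher and 6 lower, or 35.0% and 30.0%, which is near the 34.5% and 32.1% of all genes. Trim28 had 664.8 and 597.8 FPKM in the knock-in vehicle libraries, against 485.3 to 550.1 FPKM in wild type (difference 0.31). Larger differences of the corepressor list went the other way for Dnmt3a (-2.8) and Dnmt3b (-1.13), the targets of the siRNAs. Dnmt3a had 8.85 and 9.55 FPKM, against 59.8 to 77.6 FPKM in wild type. Dnmt3b had 68.8 and 55.1 FPKM, against 128.3 to 146.3 FPKM.

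The genes were spread unevenly over the chromosomes. Chromosome 7 held 47 of the 172 genes, 24 of them with the motif, chromosome 17 held 22, of which 20 had it, and chromosome 13 held 11, all with it. The medians are of the expressed zinc finger genes alone, which were 41 on chromosome 7, 18 on chromosome 17 and 9 on chromosome 13. With dox the median differences were -0.05 on chromosome 7, -0.40 on chromosome 17 and -0.39 on chromosome 13, against medians of 0.02, 0.02 and -0.03 for all genes there. In the knock-in vehicle libraries the zinc finger medians were 0.03, 0.70 and 0.69 in the same order of chromosomes. The KRAB class and the shift did not go together everywhere. Chromosome 16 held 2 genes without the motif, with medians of -0.38 for dox and 0.81 for the line. Chromosome 15 held 8 genes, 2 with the motif, with a dox median of -0.31 over the 6 expressed. Chromosome 9 held 11 genes, 8 with the motif, with a dox median of -0.09 over the 8 expressed.

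The third question is what the siRNAs did in wild-type cells. With 1 library per siRNA there is no replicate check, and the 3 siRNA libraries share the siControl library. Folds here are of FPKM + 1, which understates changes of low genes. Zfp600, at 0.401 FPKM with both siRNAs against 0.861 FPKM in siControl, was therefore not counted. On that scale none of the 141 zinc finger genes differed by 1.5-fold or more in the siDnmt3a library or in the siDnmt3b library. Of all genes, 0.772% and 0.698% did. With both siRNAs 7 were lower by that much and 0 higher, against 1.2% and 0.772% of all genes. All 7 had the KRAB motif: Zfp930, Zfp534, Zfp808, Zfp932, Zfp760, Zfp936 and Zfp951, with differences from -0.93 to -0.61. The KRAB medians were -0.04 with siDnmt3a, 0.02 with siDnmt3b and -0.21 with both, and those of the other class -0.03, -0.03 and -0.02. The library with both siRNAs stood apart in its totals, with the highest FPKM sum, 586657 against 512645 in siControl. It had 118 zinc finger genes at 1 FPKM or more, against 133 in siControl and 132 to 139 in the other libraries. Over all genes the count differed little, with 11620 against 11767 in siControl and 11691 to 12076 in the other libraries. The part of the library's composition in these differences was not tested.

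Zfp930 had 6.58 FPKM with siDnmt3a, 8.30 with siDnmt3b and 4.05 with both, against 8.65 FPKM in siControl. Zfp534 had 1.48, 2.03 and 0.544 FPKM in the same order, against 1.84 FPKM in siControl. Zfp808 had 2.43 and 2.85 FPKM with the single siRNAs and 0.978 with both, against 2.49 FPKM in siControl. In each of them the library with both siRNAs was the lowest, and the single siRNAs lay closer to siControl. That order follows from the choice of genes past 1.5-fold with both siRNAs, since none passed it with a single siRNA. The highest differences with both siRNAs were those of Zfp771 (22.7 against 15.2 FPKM, 0.55), Zfp819 (8.49 against 5.94 FPKM, 0.45) and Zfp691 (5.39 against 4.08 FPKM, 0.33). With single siRNAs the highest were Zfp691, Zfp511 and Zfp942 for siDnmt3a (0.26, 0.23 and 0.22), and Zfp931, Zfp942 and Zfp583 for siDnmt3b (0.33, 0.32 and 0.27). The lowest were Zfp930, Zfp764 and Zfp810 for siDnmt3a (-0.35, -0.33 and -0.22), and Zfp672, Zfp748 and Zfp707 for siDnmt3b (-0.41, -0.28 and -0.26). The fibroblast list summed to 333, 321 and 315 FPKM in the siRNA libraries, against 473 FPKM in siControl. Its medians were -0.61 with siDnmt3a, -0.63 with siDnmt3b and -0.76 with both, beside KRAB medians of -0.04, 0.02 and -0.21. The part of the fibroblast list in these differences was not tested.

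Taking the 4 wild-type libraries as a design of 2 factors, with 1 residual degree of freedom, the main effect of the Dnmt3a siRNA was passed by 1 zinc finger gene, against 0.274% of all genes. This was Zfp930 (difference -0.61, limma adjusted p = 0.0219), and the call was lost with all 8 libraries in 1 fit, with quantile normalization, with a pseudocount of 0.1, without the filter on low values and after correction for GC content and length. The main effect of the Dnmt3b siRNA was passed by 0 zinc finger genes in limma, against 0.125% of all genes; 8 of 141 (5.67%) had an unadjusted p under 0.05, beside 4.16% of all genes. For Dnmt3a these were 23 (16.3%), beside 11.6% of all genes.

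**Figure D4:**
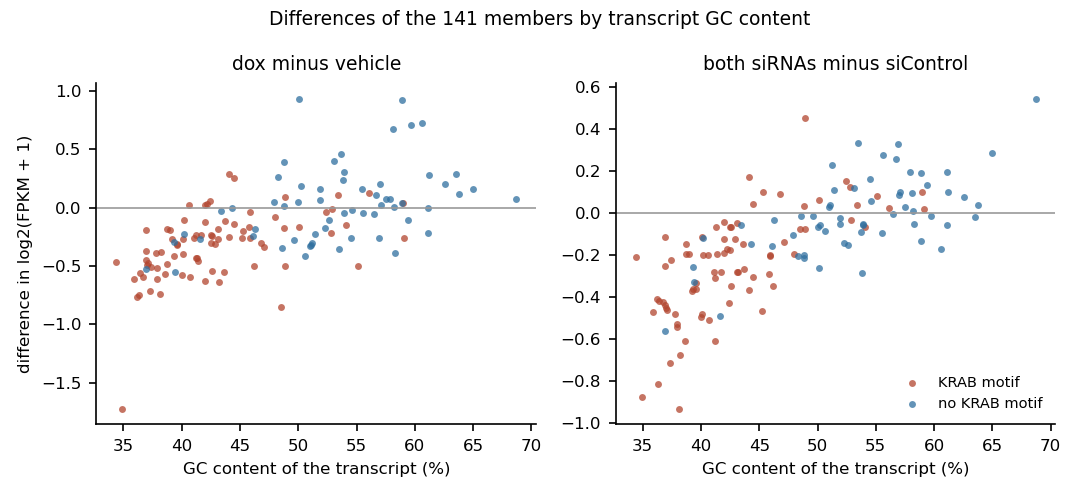
Difference in log2(FPKM + 1) of the 141 expressed zinc finger genes against the GC content of their longest annotated transcript, for dox minus vehicle (left) and both siRNAs minus siControl (right). Each point is 1 gene; genes of low GC content, mostly with the KRAB motif, lie lowest in both panels.

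The differences followed the GC content of the transcripts. Among the 141 zinc finger genes, Spearman's rho between the difference and GC content was 0.68 for dox, -0.76 for the knock-in vehicle libraries and 0.78 for both siRNAs. Over 11928 genes it was 0.28, -0.28 and 0.51. Genes of 1 library share its depth and its base composition, and these values are descriptions. After each library was corrected by loess for GC content and length, the KRAB median was -0.15 for dox, 0.20 for the knock-in vehicle libraries and -0.08 for both siRNAs, and the other class had -0.04, -0.22 and -0.04. With that correction 20 zinc finger genes (14.2%) fell and 9 (6.38%) rose with dox, beside 12% and 16.0% of all genes, so the share that fell was near that of all genes. Of them, 16 and 1 were KRAB genes. In the corrected siRNA libraries, 1 rather than 7 was lower by 1.5-fold with both siRNAs. Zfp534 kept differences of -1.40 for dox and 2.44 for the knock-in vehicle libraries. GC content and the KRAB class go together in this block, and the correction also removes any change that runs with both.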

How the data were processed

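RNA was sequenced in 8 polyA libraries of mouse iPSCs on strand-specific cDNA, per the labels' protocols. The values are FPKM, deposited by the authors as 1 table of 23284 symbols. Tools listed in the submitters' processing notes are TopHat2 2.0.10 with Bowtie 1.0.0, Cufflinks 2.2.1 with Cuffnorm, SAMtools 0.1.19 and FastQC, and the builds are GRCm38 and mm10. The sources used here give neither the annotation release nor the strand setting or library scaling. Relative depth, estimated from the steps of values under 0.3 FPKM, was 92.4% to 100% of siControl, but 13.0% to 18.0% of such genes lay within 1% of the most common ratio, so it is rough. Since FPKM are relative to the library, more RNA from abundant genes means lower values elsewhere.

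Groups came from the labels. Differences are on the log2(FPKM + 1) scale, which understates changes of low genes. The 12042 genes with a mean of 1 FPKM or more over all 8 libraries were fitted with limma 3.58.1 in R 4.3.3 (lmFit, eBayes with trend, two-sided, Benjamini-Hochberg over all of them, threshold 0.05), on the 4 knock-in libraries for dox, on vehicle and wild-type libraries for the line, and on the 4 wild-type libraries for the siRNA main effects. The fits were tested on simulated data, where those of the siRNA main effects made more false calls than the threshold allows. Single siRNA libraries were called at 1.5-fold in FPKM + 1 with no test. Of the 141 genes analysed, 124 had a mean of 1 FPKM or more in wild type, vehicle and dox alike, so some passed the limit only through the group where they were high.

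Genes were matched to GENCODE release M21, 169 of the 172 by symbol and 3 by synonym. The KRAB and zinc finger motifs were patterns in translated coding sequences, and GC content and length are those of the longest transcript. RefSeq (GRCm38.p6) promoters were held for 140 of the 172 genes, and other tools were Python 3.11.15, pandas 2.3.3, Biopython 1.88 and matplotlib 3.10.9. Genes named are the 12 of highest mean, the 10 largest calls per direction for dox and the 8 for the line, the 3 largest differences per direction for each siRNA library, up to 4 called per siRNA main effect, the 2 either side of the limit, 23 of known role (Zfp638 was not used here) and those of the corepressor list. Others were named after their values were seen (Zfp704 and those of the 1.5-fold count). The members and the lists (feeder fibroblast, pluripotent, macrophage, known role and KRAB corepressor) were chosen with earlier results of these data known. Of the macrophage list, Adgre1 was not matched.

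The labels number the clones 1 and 2 in both knock-in groups without stating that equal numbers are the same clone. The difference between clones correlated between dox and vehicle (Pearson r of 0.427 over all 12042 genes and 0.547 over the 141; genes are no independent replicates), and the fit with the clone number as a block is given beside the main one.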

Additional observations from a re-analysis of the deposited data

How the results depend on the processing

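Unless stated, the counts are of the 141 zinc finger genes with a mean of 1 FPKM or more, and the cause of a change was not tested. For dox, the replicate block by clone number gave 13 rises and 60 falls, with 46 falls among KRAB genes and 13 rises and 14 falls among the others; it changed no call of the 27 named genes. Without the filter, 19429 genes were tested, 169 of them zinc finger genes, and 4 of these fell, 4 of 97 KRAB genes and 0 of 72 others, and Zfp503, Zfp521, Zfp608, Zfp629, Zfp651, Zfp808, Zfp930 and Zfp958 kept their calls of the 27. With a mean of 5 FPKM or more, where fewer genes enter, 1 rose and 16 fell, or 1.82% and 29.1%, beside 14.1% and 16.9% of all genes. Of these, 12 KRAB genes fell (median -0.50), and of the others 1 rose (median -0.05). With correction for GC content and length, which was chosen after seeing the data, 20 fell, 16 of them KRAB genes (median -0.15, others -0.04). A pseudocount of 0.1 moved the KRAB median to -0.36, and quantile normalization to -0.38, with 8 falls and a median of -0.05 among the others; all 8 libraries in 1 fit gave 9 falls there. Leaving out 1 library gave 5 to 7 rises and 6 to 42 falls, 6 to 35 falls of KRAB genes (median -0.36 to -0.24), and 5 to 7 rises and 0 to 7 falls of the others (median -0.04 to 0.02).

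For the knock-in vehicle libraries against wild type, a mean of 5 FPKM or more left 17 higher and 22 lower. These were 30.9% and 40.0%, beside 32.2% and 32.5% of all genes. Among KRAB genes 14 were higher and 3 lower (median 0.44), and among the others 3 and 19. With siControl as the only wild-type library 4 KRAB genes were lower, and the medians were 0.37 and -0.28. Without the library with both siRNAs they were 0.36 and -0.29, with a pseudocount of 0.1 they were 0.57 and -0.36, without the filter 0.39 and -0.17, with quantile normalization 0.33 and -0.39, with the GC and length correction 0.20 and -0.22, and without genes that share sequence 0.39 and -0.28. Leaving out a vehicle library gave 50 to 55 higher and 34 to 35 lower, 41 to 47 and 5 to 6 among KRAB genes (median 0.41 to 0.42), and 8 to 9 and 29 among the others (median -0.32 to -0.31). Of the 49 named genes, Zfp708 changed sign, to -0.02 with the GC and length correction.

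The Dnmt3a siRNA main effect was passed by 5 genes (9.09%) with a mean of 5 FPKM or more, all lower. Of all genes in that setting, 0.868% were higher and 1.54% lower. It was passed by 0 with all 8 libraries in 1 fit, a pseudocount of 0.1, no filter, quantile normalization or the GC and length correction. A pseudocount of 0.1 put 3 genes past 1.5-fold with siDnmt3b and 24 with both siRNAs, where the count was 1 with the GC and length correction, 0 at 2-fold and 4 without genes that share sequence. No share of all genes is given for these settings, so the counts are no result about the zinc finger genes. The KRAB median with both siRNAs was -0.34 with a pseudocount of 0.1, -0.28 with a mean of 5 FPKM or more and -0.08 with the GC and length correction. Depth is unknown, so low genes cannot be given a counting error.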
